A study of Mus musculus with 12 samples.

Results

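Thrombomodulin (Thbd), tissue factor (F3), the endothelial protein C receptor (Procr), tissue factor pathway inhibitor (Tfpi), the plasminogen activators Plau and Plat, the urokinase receptor Plaur and the inhibitor Serpinb2 were followed in epithelial cells from the edge of mouse skin wounds. These 8 genes were taken by name from a table of 55315 genes, and all 8 passed the filter on low counts. The cells came from a ring of skin 0.25 mm wide around wounds made 3 days earlier and were sorted as live Epcam-positive, integrin α6-positive cells, leaving out cells with CD45, CD31 or CD117. Each of 4 groups had 3 libraries, numbered 1 to 3: RORγt-deficient A5-positive, RORγt-deficient A5-negative, wild-type A5-positive and wild-type A5-negative, where A5 is integrin α5. Integrin α5 marks the migrating epithelial tongue, and the α5-negative cells are the remaining wound edge. RORγt directs the fate of lymphocytes that make IL-17, and the libraries of deficient mice carry the name of a GFP knock-in. Skin of 2 or 3 mice was pooled per group and sequencing run, so the spread between libraries is that between pools, and age, sex and strain are not stated in the labels. The comparisons ask whether the 2 systems that form and dissolve fibrin differed between migrating and non-migrating cells, and with or without RORγt.

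Blood clots when plasma meets tissue factor, which binds factor VII and starts a cascade that ends with thrombin and fibrin. Tfpi blocks that first complex, and thrombomodulin redirects thrombin to activate protein C, which is held at the cell surface by Procr. Fibrin is removed by plasmin, made from plasminogen by urokinase (Plau) and tissue plasminogen activator (Plat). Urokinase acts at the cell surface on its receptor Plaur, and Serpinb2, also called plasminogen activator inhibitor type 2, blocks both activators. Keratinocytes that crawl over a wound bed cut through a fibrin clot, and urokinase and its receptor are known from such cells.

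Total counts per library ran from 29293687 to 74563616. Reads carry no molecular identifiers, so depth limits cover counting error only. Itga5 was higher in A5-positive than in A5-negative libraries of both genotypes (averaged log2 fold change 1.09 ± 0.10 (SE), edgeR adjusted p = 2.9e-05). A panel of 17 fibroblast markers was high in the A5-positive fractions: 15 of 17 were higher in A5-positive cells in each genotype. The summed level of the panel in CPM (counts scaled to library size) ran from 11449 to 19184 CPM in RORγt-deficient A5-positive, 756 to 1878 CPM in RORγt-deficient A5-negative, 6619 to 10463 CPM in wild-type A5-positive and 1484 to 2162 CPM in wild-type A5-negative libraries. In such bulk samples, fewer cells of a type and less RNA per cell cannot be told apart.

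Levels are CPM scaled with TMM factors, and per length they are given as FPKM, the same value per kilobase of annotated exon. Serpinb2 stood far above the other members, with a mean of 1767 FPKM over the 12 libraries, rank 10 of the 16677 tested genes. F3 followed with 238 FPKM at rank 146, and Plaur with 51.8 FPKM at rank 910. Procr at 13.5, Plat at 11.9 and Thbd at 9.24 FPKM lay close together, with group ranges that overlapped. Plau had 2.43 FPKM and Tfpi 0.292 FPKM, rank 13701. By mRNA, the inhibitor Serpinb2 was far more abundant per length than Plau, a protease it blocks. The ratio of Serpinb2 to Plau was 421, 2274 and 399 in RORγt-deficient A5-positive, 942, 2373 and 503 in RORγt-deficient A5-negative, 112, 478 and 240 in wild-type A5-positive and 455, 815 and 297 in wild-type A5-negative libraries. The ratio ran lowest in wild-type A5-positive cells, although the groups overlapped.

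**Figure D1:**
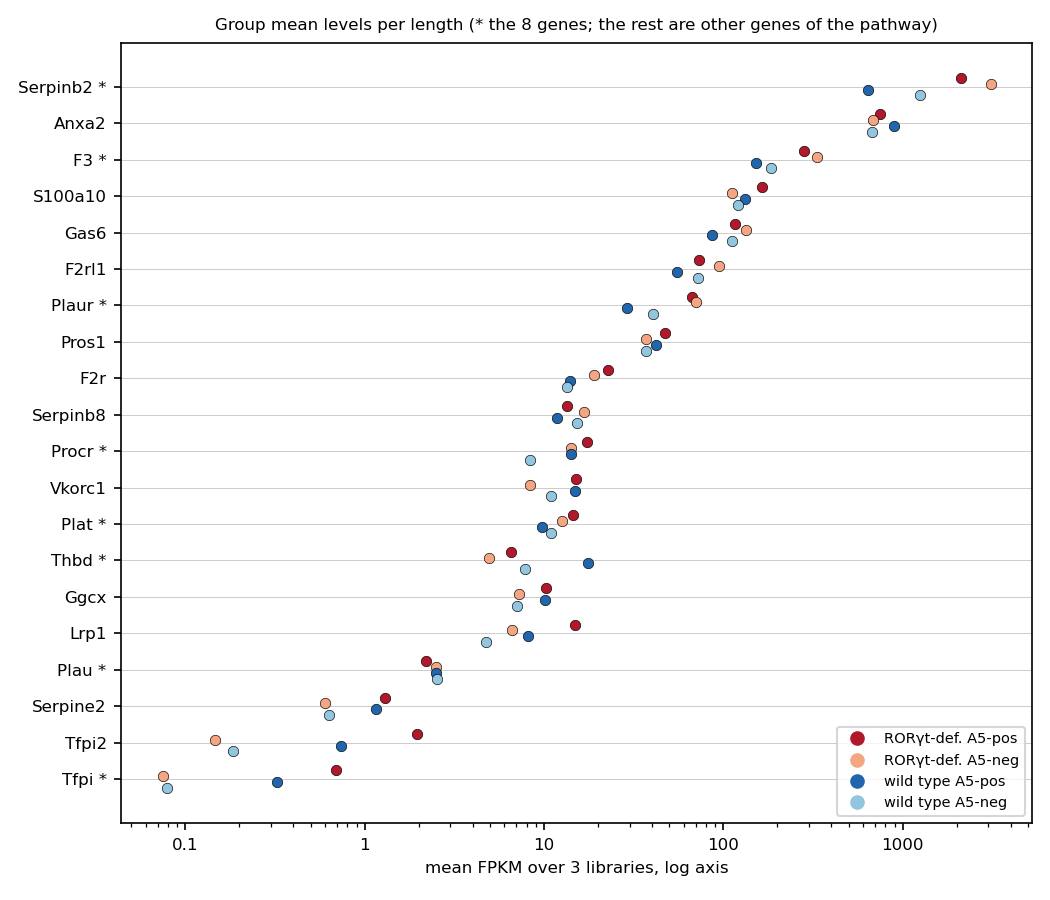
Mean FPKM over 3 libraries (log axis) of the 8 genes, marked with an asterisk, and of 12 of the 28 other tested genes of coagulation and fibrinolysis, 1 row per gene and 1 point per group. Among the genes drawn, Serpinb2 lies at the top and Tfpi at the bottom. The 4 points of most rows lie close together compared with the range over all rows drawn, though neighbouring rows often overlap.

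Library number mattered for these genes. In each of the 4 groups, library 2 had the highest level of F3, Procr, Plaur, Plat and Serpinb2 and the lowest of Thbd. Across genes, too, libraries of the same number deviated from their group means together, so each comparison is also given with the number as a block (called the replicate block). Where a call of 1 of the 8 genes was lost without library 2 of every group, its value without that library is given.

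**Figure D2:**
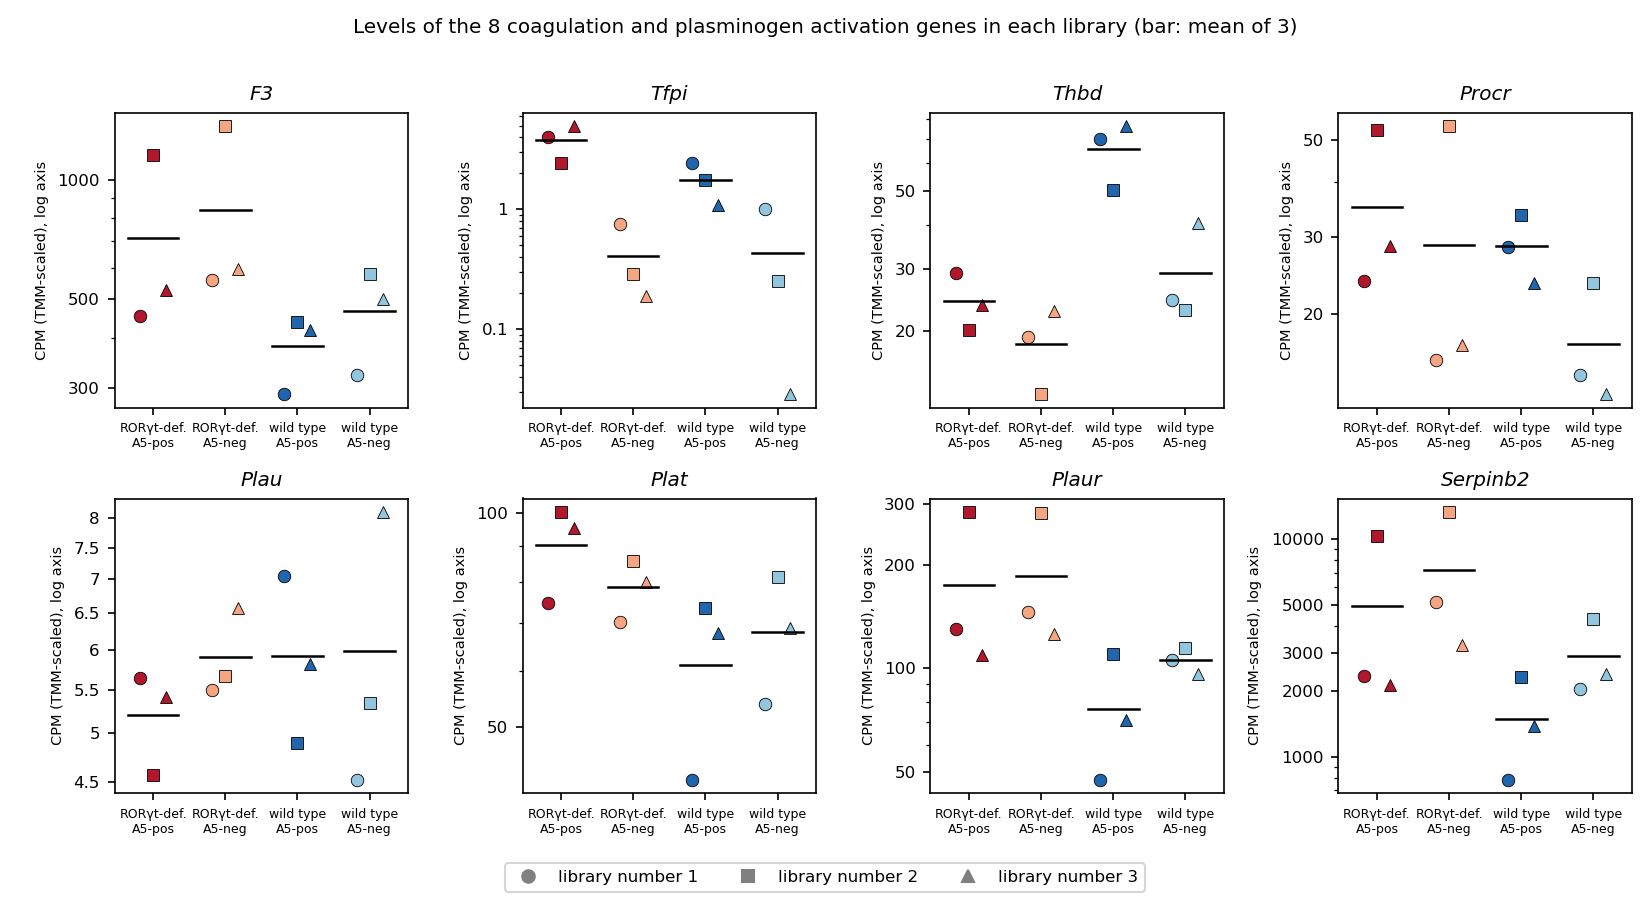
Level of each of the 8 genes in every library (CPM, log axis), with 1 column per group and a symbol for each library number. In every group the square of library 2 is the highest point for F3, Procr, Plaur, Plat and Serpinb2 and the lowest for Thbd, and Tfpi separates the A5-positive from the A5-negative fractions in both genotypes.

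F3 encodes tissue factor, the membrane receptor that starts clotting (ENSMUSG00000028128, chr3:121723537-121735048, plus strand, GRCm38). It had 455, 1158 and 528 CPM in RORγt-deficient A5-positive libraries, 559, 1364 and 595 CPM in RORγt-deficient A5-negative, 288, 439 and 418 CPM in wild-type A5-positive and 322, 581 and 502 CPM in wild-type A5-negative libraries. Every RORγt-deficient A5-positive library lay above every wild-type A5-positive one, while the A5-negative groups overlapped. Averaged over both fractions, the genotype difference was 0.87 ± 0.29 (log2, SE) with an adjusted p of 0.162 in edgeR, and with the replicate block F3 was higher in RORγt-deficient cells, by 0.78 ± 0.14 with an adjusted p of 0.0109. The sign was the same in each of the 3 numbers, with 0.73, 1.31 and 0.29. Without library 2 of every group the blocked difference was 0.50 ± 0.12 with an adjusted p of 0.159, and the call was also lost without library 1 of every group or without wild-type A5-negative 2 (adjusted p = 0.0556). Between A5-positive and A5-negative cells F3 differed by -0.23 ± 0.41 in RORγt-deficient and -0.29 ± 0.41 in wild-type mice, with adjusted p-values of 0.769 and 0.705. The A5-negative library had the higher F3 level in all 6 pairs of fractions from the same genotype and number.

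The upstream sequences of F3, Plaur and Serpinb2 are shown since these 3 genes had their highest levels in the same libraries. Procr shared this, and its sequence is not shown. The 3 genes were picked after their values were seen. RefSeq's table (GRCm38.p6) gave a start for 5 of the 8 genes, F3, Procr, Tfpi, Plaur and Serpinb2. The 250 bases before the first listed start, 5′ to 3′ on the plus strand, are from chr3:121723287-121723536 (F3), chr7:24462233-24462482 (Plaur) and chr1:107511173-107511422 (Serpinb2), with capitals on TGACTCA or TGAGTCA, the AP-1 motif on either strand, and on TATAAA or TTTATA, the TATA motif on either strand.
F3: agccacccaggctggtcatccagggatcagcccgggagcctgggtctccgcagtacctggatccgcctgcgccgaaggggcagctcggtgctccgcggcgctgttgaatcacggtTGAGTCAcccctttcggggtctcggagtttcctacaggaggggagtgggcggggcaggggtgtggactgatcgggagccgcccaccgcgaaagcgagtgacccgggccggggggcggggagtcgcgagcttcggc
Plaur: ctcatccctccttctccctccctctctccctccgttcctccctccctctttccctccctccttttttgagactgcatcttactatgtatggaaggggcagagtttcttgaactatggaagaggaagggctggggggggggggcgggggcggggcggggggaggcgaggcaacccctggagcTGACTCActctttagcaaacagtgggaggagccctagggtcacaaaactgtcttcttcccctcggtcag
Serpinb2: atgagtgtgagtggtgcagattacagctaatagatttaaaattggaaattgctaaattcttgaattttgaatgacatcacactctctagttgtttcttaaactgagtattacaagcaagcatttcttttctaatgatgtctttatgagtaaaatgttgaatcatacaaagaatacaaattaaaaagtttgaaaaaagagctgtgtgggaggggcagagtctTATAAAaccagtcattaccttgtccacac
An AP-1 match was found at position -135 of F3, -69 of Plaur and -154 of Procr, counted back from the start, and none in this window of Serpinb2 or Tfpi. Of 27025 promoters of the same length, 4.43% hold this motif. Serpinb2 had TATAAA at -29 and Tfpi had TTTATA at -127, a motif held on either strand by 13% of the promoters. The hypoxia motif core ACGTG, on either strand, was in none of the 5 genes' windows and in 16.6% of the promoters. The GC box GGGCGG, also searched on either strand, was in the windows of F3, Plaur and Tfpi and in 32.9% of the promoters. A match is a string of letters and does not show binding.

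Tfpi, a secreted and surface-bound Kunitz inhibitor of tissue factor (ENSMUSG00000027082, chr2:84432855-84476775, minus strand), was the member that differed most between the fractions. Raw counts were 210, 80 and 188 in RORγt-deficient A5-positive, 55, 10 and 6 in RORγt-deficient A5-negative, 139, 59 and 32 in wild-type A5-positive and 56, 9 and 1 in wild-type A5-negative libraries. As levels these are 3.99, 2.44 and 4.92, against 0.747, 0.286 and 0.190 CPM, in A5-positive and A5-negative cells of RORγt-deficient mice, and 2.43, 1.77 and 1.08, against 1.0, 0.254 and 0.0286 CPM, in those of wild-type mice. The fractions did not overlap in either genotype. Tfpi was higher in A5-positive cells in RORγt-deficient mice, by 3.14 ± 0.82 on the log2 scale (8.82-fold, edgeR adjusted p = 0.0457, and 3.48 ± 0.67 with an adjusted p of 0.0063 with the replicate block). It was the only one of the 8 members past the threshold of 0.05 in that comparison, in which 5.52% of all tested genes were called. The unblocked call was lost, with an adjusted p of up to 0.158, on leaving out any 1 of 8 libraries: RORγt-deficient A5-positive 1 or 3, any RORγt-deficient A5-negative one, wild-type A5-positive 2 or 3, or wild-type A5-negative 2. Without library 2 of every group the unblocked value was 3.17 ± 1.11 with an adjusted p of 0.14. In wild-type mice the difference was 1.98 ± 0.80 with an adjusted p of 0.188, and with the block Tfpi was higher by 2.29 ± 0.65 with an adjusted p of 0.0395. The blocked wild-type call was lost on leaving out any single library other than RORγt-deficient A5-positive 1 or 3 or wild-type A5-negative 1, and was 2.02 ± 0.91 with an adjusted p of 0.239 without library 2 of every group. The blocked call in RORγt-deficient mice was kept on leaving out any single library and lost on leaving out library 2 of every group (3.68 ± 0.96, adjusted p = 0.0616). Averaged over genotypes Tfpi was 5.90-fold higher in A5-positive cells (2.56 ± 0.57, adjusted p = 0.0111), and without library 2 of every group the value was 2.42 ± 0.77 with an adjusted p of 0.0682. The unblocked Tfpi calls and the blocked wild-type call were also lost without library 3 of every group.

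Fibroblast markers, like Tfpi, were higher in A5-positive than in A5-negative libraries. Without Postn, which was above 100 CPM in every library, the 16 other fibroblast markers summed to 16190, 10210 and 17317 CPM in RORγt-deficient A5-positive, 561, 73.7 and 94.5 CPM in RORγt-deficient A5-negative, 4033, 6350 and 8814 CPM in wild-type A5-positive and 239, 103 and 255 CPM in wild-type A5-negative libraries. No gene of the list was at 0 in all libraries. Among A5-negative cells, library 1 had the highest Tfpi level in both genotypes, and it had the highest marker sum in RORγt-deficient mice only. In wild-type A5-negative cells the highest marker sum, 255 CPM in library 3, stood beside the lowest Tfpi level. Among wild-type A5-positive libraries the orders of Tfpi and the marker sum were opposite, with the highest Tfpi level beside the lowest marker sum. The sum of 12 endothelial markers followed the order of Tfpi within both wild-type groups. It was 93.0, 21.7 and 12.4 CPM in A5-positive and 39.1, 22.1 and 15.3 CPM in A5-negative libraries. In RORγt-deficient mice, A5-negative library 1 was highest in both. Among RORγt-deficient A5-positive libraries, the highest sum, 28.7 CPM in library 2, stood beside the lowest Tfpi level. The fractions overlapped in this sum in both genotypes. The part of fibroblasts, endothelial or other cells in the Tfpi result was not tested.

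**Figure D3:**
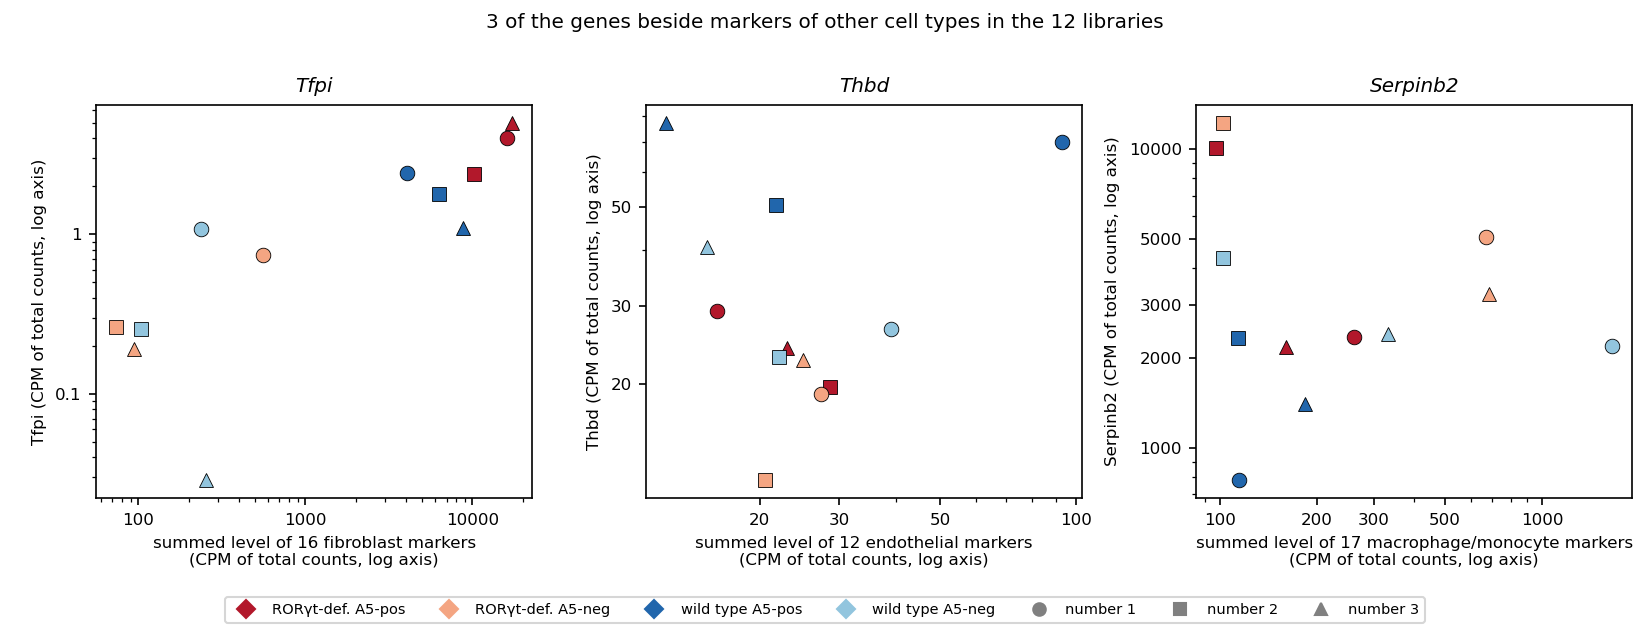
Tfpi beside the sum of 16 fibroblast markers, Thbd beside the sum of 12 endothelial markers and Serpinb2 beside the sum of 17 macrophage and monocyte markers, in CPM of total counts on log axes, with 1 point per library. All 6 A5-positive libraries lie high for both Tfpi and the fibroblast sum. The highest Thbd level stands beside the lowest endothelial sum, and the next highest Thbd level beside the highest endothelial sum.

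Thbd, a single-exon gene for the thrombin receptor thrombomodulin (ENSMUSG00000074743, chr2:148404466-148408188, minus strand), was the member that set wild-type A5-positive cells apart. Its level was 29.2, 20.2 and 23.7 CPM in RORγt-deficient A5-positive libraries, 19.2, 13.2 and 22.8 CPM in RORγt-deficient A5-negative, 70.2, 50.3 and 76.2 CPM in wild-type A5-positive and 24.5, 22.9 and 40.4 CPM in wild-type A5-negative libraries. Wild-type A5-positive libraries lay above all 9 others. In wild-type mice Thbd was 2.24-fold higher in A5-positive than in A5-negative cells (log2 1.16 ± 0.26, edgeR adjusted p = 0.0335, and 1.17 ± 0.16 with an adjusted p of 0.00176 with the replicate block), the only call among the 8 members where 3.45% of all tested genes passed. The 3 numbers gave 1.51, 1.13 and 0.91. The unblocked call was lost on leaving out any 1 of 6 libraries: RORγt-deficient A5-positive 3, RORγt-deficient A5-negative 1, wild-type A5-positive 1 or 3, or wild-type A5-negative 1 or 2. With the block, it was kept on leaving out any single library (adjusted p at most 0.0123) and lost without library 2 of every group (1.17 ± 0.23, adjusted p = 0.0559, and 1.15 ± 0.25 with 0.0797 unblocked). In RORγt-deficient mice the same difference was 0.41 ± 0.26 with an adjusted p of 0.379 (0.44 ± 0.16 and 0.0841 with the block). Averaged over genotypes, Thbd was higher in A5-positive cells by 0.79 ± 0.19 (edgeR adjusted p = 0.0148), and by 0.81 ± 0.11 with the block (0.000533). Both averaged calls were kept on leaving out any single library, and the unblocked one was lost without library 1 of every group.

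Every RORγt-deficient library had less Thbd than every wild-type library of the same fraction, as did 2.19% of all tested genes. In A5-positive cells the log2 difference was -1.43 ± 0.27, or 0.372-fold. Its adjusted p was 0.178 in the unblocked fit, in which 0.006% of all tested genes, 1 gene, passed, and 0.00987 with the replicate block, in which 4.02% passed. In A5-negative cells the difference was -0.67 ± 0.26 with an adjusted p of 0.779 (0.157 with the block). Averaged over the fractions, the difference was -1.05 ± 0.19 with an adjusted p of 0.079, and with the block Thbd fell in RORγt-deficient cells by 1.04 ± 0.11, with an adjusted p of 0.00241. DESeq2 gave adjusted p-values of 0.000342 in A5-positive cells and 6e-05 for the average. The blocked call in A5-positive cells was lost without library 1 of wild-type A5-positive cells (adjusted p = 0.0527), and without library 2 of every group it was -1.45 ± 0.23 with an adjusted p of 0.201, a fit in which 1 gene in all passed. The blocked average without library 2 of every group was -1.04 ± 0.16 with an adjusted p of 0.136. The difference between the A5 effects of the genotypes was -0.76 ± 0.37 with an adjusted p of 1 (-0.74 ± 0.23 and 0.914 with the block), so that no difference between the genotypes in the A5 effect on Thbd was shown.

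Thrombomodulin is also a marker of endothelium, which the sort removed by CD31. The 12 endothelial markers summed to 16.1, 28.7 and 23.0 CPM in RORγt-deficient A5-positive, 27.3, 20.5 and 24.9 CPM in RORγt-deficient A5-negative, 93.0, 21.7 and 12.4 CPM in wild-type A5-positive and 39.1, 22.1 and 15.3 CPM in wild-type A5-negative libraries. The high sum belonged to library 1 of wild-type A5-positive cells, in which Pecam1 (CD31) had 17.01 CPM. Library 3 of that group had the highest Thbd level of all 12 and the lowest endothelial sum. Library 1 of the group, with the highest sum, had the next highest Thbd level. The part of endothelial cells in the Thbd results was not tested.

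Procr, the receptor that presents protein C to thrombomodulin (ENSMUSG00000027611, chr2:155751117-155755471, plus strand), had 23.8, 52.8 and 28.7 CPM in RORγt-deficient A5-positive, 15.6, 53.8 and 16.95 CPM in RORγt-deficient A5-negative, 28.5, 33.7 and 23.5 CPM in wild-type A5-positive and 14.5, 23.5 and 13.1 CPM in wild-type A5-negative libraries. Library 2 of both RORγt-deficient fractions stood about level with each other and above the rest. In wild-type mice, the A5 difference was 0.75 ± 0.45 with an edgeR adjusted p of 0.368, and with the replicate block Procr was higher in A5-positive cells by 0.81 ± 0.23 (adjusted p = 0.0434). That call was lost on leaving out any single library other than RORγt-deficient A5-negative 1 or 2 or wild-type A5-positive 2, and without library 2 of every group the blocked value was 0.89 ± 0.19 with an adjusted p of 0.0674. In RORγt-deficient mice the difference was 0.29 ± 0.45 with an adjusted p of 0.741 (0.40 ± 0.23 and 0.253 with the block). Averaged over genotypes, Procr was higher in A5-positive cells with the block only (0.60 ± 0.17, adjusted p = 0.0168, against 0.272 without it), a call lost without RORγt-deficient A5-negative 1 or 3 or wild-type A5-positive 1 (adjusted p up to 0.0584), and without library 1 or 3 of every group. The wild-type call was lost without any 1 of the 3 numbers. Between genotypes Procr passed in no comparison, with or without the block.

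The ratio of F3 to Thbd, the starter of clotting against a brake on it, combines the opposite differences of these genes. Taken per length, it was 22.9, 84.7 and 32.8 in RORγt-deficient A5-positive libraries, 42.9, 152 and 38.5 in RORγt-deficient A5-negative, 6.05, 12.9 and 8.09 in wild-type A5-positive and 19.3, 37.4 and 18.3 in wild-type A5-negative libraries. Its mean was 46.8 ± 33.1 in RORγt-deficient and 9.01 ± 3.50 in wild-type A5-positive cells (SD, n = 3 each), and 77.9 ± 64.4 in RORγt-deficient and 25.0 ± 10.7 in wild-type A5-negative cells. RORγt-deficient libraries lay above wild-type ones in each fraction without overlap, and wild-type A5-positive cells had the lowest 3 values. Thbd alone was lower in both fractions without overlap, as were 2.19% of all tested genes. The ratio of F3 to Tfpi, the other brake, overlapped between genotypes in each fraction. Its mean was 502 ± 455 in RORγt-deficient and 544 ± 292 in wild-type A5-positive cells (SD, n = 3 each). In A5-negative cells it was 6223 ± 4364 in RORγt-deficient and 14549 ± 20432 in wild-type mice, where Tfpi counts were low. Both ratios were formed with the genes' values known and were not tested.

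**Figure D4:**
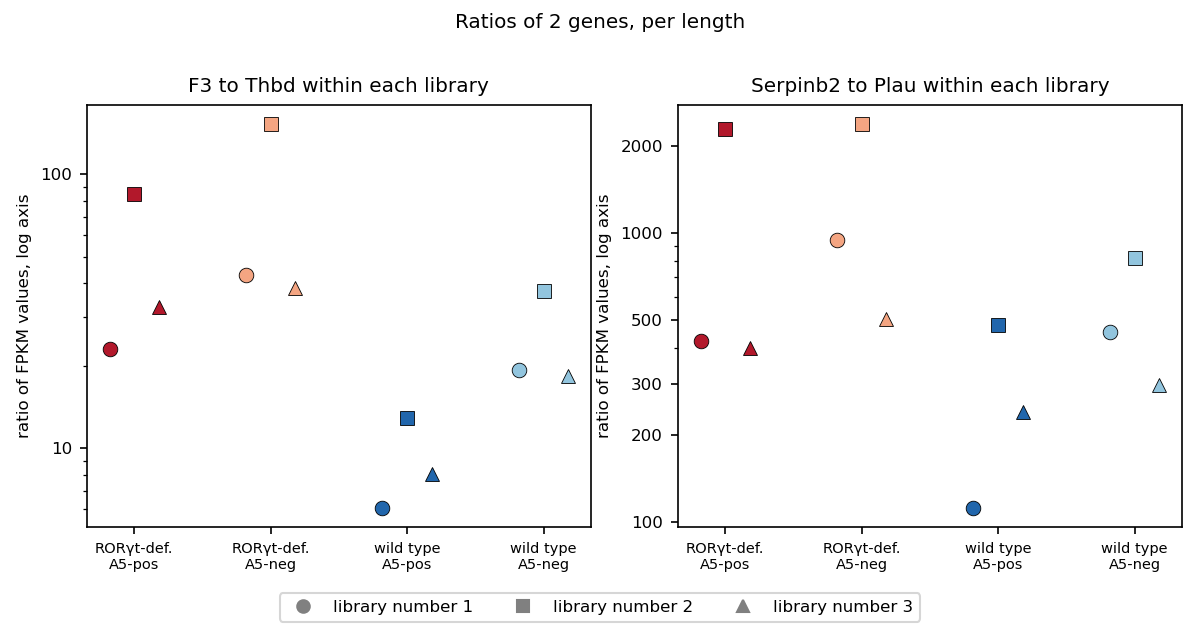
Ratio of F3 to Thbd and of Serpinb2 to Plau within each library, as FPKM over FPKM on log axes, with 1 column per group and a symbol for each library number. The F3 to Thbd ratio runs from 6.05 to 12.9 in wild-type A5-positive libraries, below all 9 others, and library 2 is the highest of every group in both panels.

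Plau encodes urokinase (ENSMUSG00000021822, chr14:20836660-20843385, plus strand), and its 4 group means spanned a narrow range, 5.21 to 5.99 CPM. Its level was 5.65, 4.57 and 5.41 CPM in RORγt-deficient A5-positive, 5.50, 5.67 and 6.57 CPM in RORγt-deficient A5-negative, 7.05, 4.89 and 5.82 CPM in wild-type A5-positive and 4.52, 5.34 and 8.11 CPM in wild-type A5-negative libraries. All 4 groups overlapped. The log2 A5 difference was -0.18 ± 0.24 in RORγt-deficient and -0.01 ± 0.24 in wild-type mice, and the genotype difference -0.19 ± 0.24 in A5-positive and -0.02 ± 0.24 in A5-negative cells, none past the threshold.

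Plat encodes tissue plasminogen activator (ENSMUSG00000031538, chr8:22757727-22782844, plus strand). Its level was 74.7, 101 and 95.3 CPM in RORγt-deficient A5-positive, 70.2, 85.7 and 80.1 CPM in RORγt-deficient A5-negative, 42.1, 73.5 and 67.7 CPM in wild-type A5-positive and 53.8, 81.4 and 68.9 CPM in wild-type A5-negative libraries. The genotypes did not overlap in A5-positive cells and did in A5-negative cells. In A5-positive cells the difference was 0.56 ± 0.21 with an edgeR adjusted p of 0.269, and with the replicate block Plat was 1.501-fold higher in RORγt-deficient cells (0.59 ± 0.11, adjusted p = 0.0334). This call was lost, with an adjusted p of up to 0.158, on leaving out any 1 of 7 libraries: any RORγt-deficient A5-positive one, wild-type A5-positive 1 or 2, or wild-type A5-negative 2 or 3. The blocked value without library 2 of every group was 0.65 ± 0.15 with an adjusted p of 0.278. In A5-negative cells it was 0.21 ± 0.21 with an adjusted p of 0.816, and 0.23 ± 0.11 and 0.358 with the block. The averaged difference passed with the block only, at 0.41 ± 0.08 and an adjusted p of 0.0125 against 0.201 without it, and was not past the threshold without library 2 of wild-type A5-negative cells (adjusted p = 0.0514) or without library 2 of every group (0.47 ± 0.11, adjusted p = 0.157). Both Plat calls were also lost without library 1 or without library 3 of every group.

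Plaur, the receptor that holds urokinase on the cell (ENSMUSG00000046223, chr7:24462484-24475968, plus strand), had 130, 285 and 110 CPM in RORγt-deficient A5-positive, 145, 284 and 126 CPM in RORγt-deficient A5-negative, 47.4, 110 and 70.6 CPM in wild-type A5-positive and 106, 115 and 96.6 CPM in wild-type A5-negative libraries. The A5-negative cells of the genotypes did not overlap. The lowest RORγt-deficient A5-positive library and the highest wild-type A5-positive one both stood near 110 CPM. In A5-positive cells the genotype difference was 1.2 ± 0.41 with an edgeR adjusted p of 0.227, and with the replicate block Plaur was 2.22-fold higher in RORγt-deficient cells (1.15 ± 0.22, adjusted p = 0.0334). This call was lost, with an adjusted p of up to 0.161, on leaving out any 1 of 6 libraries: any RORγt-deficient A5-positive one, wild-type A5-positive 1 or 2, or wild-type A5-negative 3. Without library 2 of every group the blocked value was 1.02 ± 0.21 with an adjusted p of 0.234, and the call was also lost without library 1 or 3 of every group. In A5-negative cells the difference was 0.81 ± 0.40 with an adjusted p of 0.779, and 0.69 ± 0.21 and 0.2 with the block. Averaged over fractions it was 1.0 ± 0.29 with an adjusted p of 0.134, and 0.92 ± 0.15 and 0.00942 with the block. Without library 2 of every group the blocked average was 0.72 ± 0.15 with an adjusted p of 0.153. No A5 difference of Plaur passed, with or without the block.

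Serpinb2 (ENSMUSG00000062345, chr1:107511423-107535478, plus strand) shares positions with Serpinb10 on the same strand, so reads in the overlap cannot be assigned with certainty. Its level was 2362, 10309 and 2145 CPM in RORγt-deficient A5-positive libraries, 5138, 13354 and 3278 CPM in RORγt-deficient A5-negative, 782, 2321 and 1385 CPM in wild-type A5-positive and 2039, 4317 and 2392 CPM in wild-type A5-negative libraries. The group means were 4939 ± 4652, 7257 ± 5361, 1496 ± 775 and 2916 ± 1226 CPM in the same order of groups (SD, n = 3 each), and library 2 of each RORγt-deficient fraction took most of that spread. In library 2 of RORγt-deficient A5-negative cells, 1.23% of all counts came from this gene. Neither the genotypes nor the fractions separated fully.

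Within a number, Serpinb2 was ordered alike in all pairs. The genotype difference in A5-positive cells was 1.59, 2.15 and 0.63 on the log2 scale in numbers 1, 2 and 3, and 1.33, 1.63 and 0.46 in A5-negative cells. The fit without the block gave 1.72 ± 0.68 with an edgeR adjusted p of 0.279 in A5-positive cells, and with the block Serpinb2 was 2.75-fold higher in RORγt-deficient cells (1.46 ± 0.29, adjusted p = 0.0362). This call was lost, with an adjusted p of up to 0.162, on leaving out any 1 of 8 libraries: any RORγt-deficient A5-positive one, RORγt-deficient A5-negative 2, wild-type A5-positive 1 or 2, or wild-type A5-negative 2 or 3. The blocked value without library 2 of every group was 1.06 ± 0.31 with an adjusted p of 0.3, and the call was also lost without library 1 of every group. Averaged over the fractions the values were 1.52 ± 0.48 and 0.154 without the block, and 1.30 ± 0.21 and 0.00892 with it. Without library 2 of every group the blocked average was 0.99 ± 0.22 with an adjusted p of 0.157. Between fractions, Serpinb2 was lower in A5-positive cells of wild-type mice with the block (-1.0 ± 0.29, adjusted p = 0.0408, against 0.428 without it). That call was lost, with an adjusted p of up to 0.196, on leaving out wild-type A5-positive 1 or 2 or wild-type A5-negative 1 or 3, and without library 2 of every group the blocked value was -1.06 ± 0.31 with an adjusted p of 0.119 (also lost without library 1 of every group). In RORγt-deficient mice the same difference was -0.70 ± 0.29 with an adjusted p of 0.116 with the block, and -0.56 ± 0.66 and 0.648 without it. Averaged over genotypes, it was lower in A5-positive cells with the block (-0.85 ± 0.20, adjusted p = 0.00887), a call kept on leaving out any single library and lost without library 1 of every group (-0.65 ± 0.25, adjusted p = 0.0997).

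Macrophages and differentiating keratinocytes can also make Serpinb2, and some markers of both were lower in A5-positive cells. Averaged over genotypes, 9 of 19 macrophage and monocyte markers were lower in A5-positive cells and none was higher (13 and none with the replicate block). In that comparison 18.2% of all tested genes were called, and 33.9% with the block. Of 11 markers of differentiating keratinocytes, 2 were lower and none higher, a share near that of all genes (7 and none with the block). Their sum ran from 4230 to 6298 CPM in RORγt-deficient A5-positive, 7548 to 11208 CPM in RORγt-deficient A5-negative, 4931 to 11637 CPM in wild-type A5-positive and 7464 to 12829 CPM in wild-type A5-negative libraries. Between genotypes, averaged over the fractions, 3 of these 11 were lower in RORγt-deficient cells with the block, the fit in which Serpinb2 was higher, and none passed without it. Of all tested genes, 12.1% were called there with the block and 0.054% without it. With genes above 100 CPM in every library left out of the list, 17 macrophage and monocyte markers summed to 261, 97.6 and 161 CPM in RORγt-deficient A5-positive, 668, 102 and 684 CPM in RORγt-deficient A5-negative, 115, 114 and 184 CPM in wild-type A5-positive and 1647, 103 and 333 CPM in wild-type A5-negative libraries. The 2 libraries with the most Serpinb2 stood among the lowest 3 in this sum. None of these 17 was at 0 in all libraries. The part of either cell type in the Serpinb2 results was not tested.

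**Figure D5:**
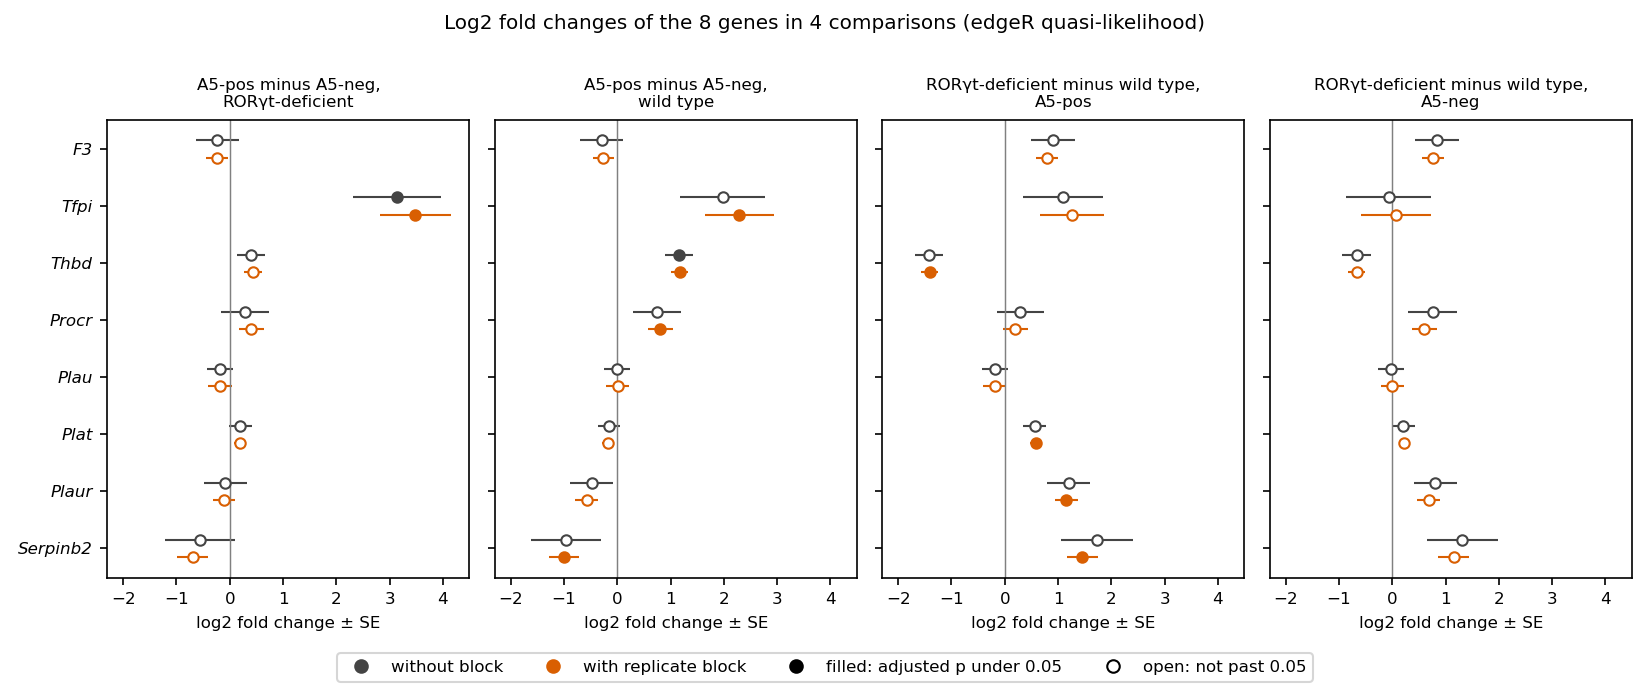
Log2 fold changes with their SE for the 8 genes in 4 comparisons, in the fit without the replicate block (grey) and with it (orange), filled where the adjusted p is under 0.05. The estimates of both fits lie close together, and the SE with the block is the shorter for each gene that passes.

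Counted together, with the replicate block 1 of the 8 members, Tfpi, was called between A5-positive and A5-negative cells of RORγt-deficient mice, where 17.6% of all tested genes were. In wild-type mice 4 were, Thbd, Procr and Tfpi higher and Serpinb2 lower in A5-positive cells, where 14.4% of all genes were. Between genotypes, 4 of 8 were called in A5-positive cells (Thbd lower, Plaur, Plat and Serpinb2 higher in RORγt-deficient mice), beside 4.02% of all genes. For the average over fractions 5 of 8 were called with the block, F3 being added, beside 12.1% of all genes, and none without the block, beside 0.054%. Without the block, 5 members had an unadjusted p under 0.05 in A5-positive cells, beside 15% of all genes, and 5 for the average, beside 19.8%. DESeq2 called 1 member in A5-positive cells, beside 2.71% of all genes, and 3 for the average, beside 5.1%. Of A5-negative cells, none was called, and 0.006% of all genes were, with or without the block. At an unadjusted p under 0.05, 1 member lay in A5-negative cells without the block, beside 5.09% of all genes, and 5 with it, beside 15.1%. DESeq2 called no member there and 0.126% of all genes. With a block by genotype and number, added after the data were seen, 2 members (Tfpi higher, Serpinb2 lower) were called between the fractions of RORγt-deficient mice, beside 17.3% of all genes, 4 in wild-type mice, beside 14.4%, and 5 averaged over genotypes, where F3 was lower in A5-positive cells (-0.25 ± 0.06, edgeR adjusted p = 0.0127), beside 32.6%. For the A5 effect averaged over genotypes, 2 members were called without the block and 4 with it, where 18.2% and 33.9% of all genes were. For the difference between the A5 effects of the genotypes none was called, and 0% of all genes were, with or without the block. At an unadjusted p under 0.05, no member lay there without the block, beside 2.75% of all genes, and 2 did with it, beside 5.46%. DESeq2 called no member for it and 0.048% of all genes. Groups that did not overlap were found for Tfpi between the fractions of RORγt-deficient mice, as for 25.6% of all tested genes, and for Thbd and Tfpi in wild-type mice, as for 25% of them. Between genotypes they were found for 4 members in A5-positive cells, F3, Tfpi, Plat and Thbd, beside 18.1% of all genes, and for Plaur and Thbd in A5-negative cells, beside 15.6%. The comparisons share libraries, so these counts are not independent. The median log2 genotype difference of the members was 0.73 in A5-positive and 0.48 in A5-negative cells, against 0.0021 and 0.00014 over all tested genes. In A5-positive cells the sum of the 16 fibroblast markers given above also separated the genotypes, at 10210 to 17317 CPM in RORγt-deficient and 4033 to 8814 CPM in wild-type libraries, though none of the 17 listed markers passed between genotypes there (1 with the block). The part of these cells in the genotype differences was not tested.

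Both fractions of a genotype and number may come from the same pool of mice. With the counts of both fractions summed, leaving 3 sums per genotype, edgeR called no member between genotypes, beside 0.012% of all genes, and 4 members had an unadjusted p under 0.05, beside 11.4%. With the number as a block in that fit, Thbd was lower (-1.15 ± 0.11, edgeR adjusted p = 0.00322) and Plaur (0.89 ± 0.16, 0.0278) and Serpinb2 (1.27 ± 0.24, 0.0331) were higher in RORγt-deficient mice, beside 3.46% of all genes. F3 and Plat then had adjusted p-values of 0.0551 and 0.0671. This alternative was added after the data were seen.

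Other genes of the 2 systems ranged from absent to abundant in these cells. Of 45 other genes listed for coagulation and fibrinolysis, 28 were tested, 17 were too low, and 6 (A2m, F13b, Fga, Fgb, Hrg and Kng1) had no count in any library. The plasma proteins of the cascade are mostly made in liver, and prothrombin (F2) reached at most 15 counts and plasminogen (Plg) at most 4 counts in a library. The most abundant others were the cell-surface plasminogen receptor subunits Anxa2 with 749 FPKM and S100a10 with 132 FPKM. Gas6, a vitamin K-dependent ligand of receptor tyrosine kinases, had 112 FPKM, the protease-activated receptor F2rl1 had 73.5 FPKM and the protein C cofactor Pros1 had 40.8 FPKM.

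Of these 28 genes, 4 were higher and none lower in A5-positive cells of RORγt-deficient mice, where 5.52% of all genes were called, and none passed in wild-type mice, where 3.45% were. With the replicate block 8 were higher in RORγt-deficient mice, where 17.6% of all genes were called, and 4 in wild-type mice, where 14.4% were, and none was lower. Among those higher in RORγt-deficient mice without the block, Tfpi2, an inhibitor related to Tfpi, had a log2 difference of 3.69 ± 0.67 (edgeR adjusted p = 0.00658). Lrp1, the receptor that clears protease and inhibitor complexes, had 1.17 ± 0.23 (0.00997), and Ggcx, the carboxylase that matures vitamin K-dependent factors, 0.51 ± 0.13 (0.0434). In wild-type mice their values were 2.02 ± 0.64 (adjusted p = 0.11) for Tfpi2, 0.78 ± 0.22 (0.0813) for Lrp1 and 0.53 ± 0.13 (0.0512) for Ggcx. Averaged over genotypes 6 were higher, Serpine2 (0.98 ± 0.25, 0.0203) and Vkorc1 (0.65 ± 0.20, 0.0425) among them, and Gas6 was lower (-0.29 ± 0.09, 0.049). In that averaged comparison 18.2% of all tested genes were called. Fibroblast markers rose in the same fractions, and their part in these values was not tested.

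Between genotypes none of the 28 passed without the block. With it 1 of the 28, the thrombin receptor F2r, was higher in RORγt-deficient A5-positive cells (0.70 ± 0.15, edgeR adjusted p = 0.0398). There 4.02% of all tested genes were called, so this share is near the background. Averaged over fractions 4 of the 28 passed, beside 12.1% of all genes, a share near the background: 3 were higher, F2r (0.59 ± 0.11, 0.0113), Gas6 (0.33 ± 0.08, 0.0313) and Lrp1 (0.67 ± 0.16, 0.0263), and 1 was lower, the transglutaminase Tgm1. The median genotype difference of the 28 genes was 0.42 in A5-positive cells, beside 0.73 for the 8 members.

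Across the 12 libraries, the tested genes with the most similar log2 levels were looked up for each member averaging 3 or more in log2 CPM, by Pearson's r among 9070 genes, as a description that shares library, number and group. For Serpinb2 these were Ifi202b (0.994), Ndfip2 (0.989) and Pak1 (0.988), and for Plaur they were Il15ra (0.978), Uap1 (0.973) and Rassf1 (0.968). F3 ran closest to Cldnd1 (0.976), Nup62 (0.973) and Fastkd3 (0.969). Procr ran closest to Nars (0.958), Cth (0.938) and Cars (0.936), and Thbd to Qars (0.950), Cpt2 (0.941) and Pigs (0.941). Plat had Lpgat1 (0.941), Clic4 (0.940) and Smad3 (0.922). Nars and Cars, listed for Procr, and Qars, listed for Thbd, encode aminoacyl-tRNA synthetases. Thbd and Procr themselves had an r of -0.181 over the 12 libraries, and of -0.799 for deviations from the group means.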

How the data were processed

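RNA of sorted wound-edge epithelial cells was sequenced in 12 libraries, 3 per group, made with SMART-Seq v4 and ThruPLEX kits per the labels' protocols. Per the submitters' processing notes, reads went through bcl2fastq and Trimmomatic 0.36, STAR and featureCounts were used, and the build was mm10 (GRCm38). The sources used here do not give the annotation, the strand setting or how multiply matching reads were counted. The authors deposited raw read counts per gene symbol. Of 55341 rows, 26 whose symbols had become dates (0.11% to 0.128% of counts) were left out, and the other 55315 symbols matched GENCODE M21, which gave positions and lengths.

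Counts were tested with edgeR 4.0.16 (R 4.3.3): TMM factors, filterByExpr by group (16677 genes), 1 model of 4 groups over 12 libraries, the quasi-likelihood F test and Benjamini-Hochberg adjustment (threshold 0.05) in 7 separate comparisons. The SE is the absolute log2 fold change over the root of F. The fit was tested on simulated data. Samples were grouped by the labels. Numbers were taken to pair the samples, since the 18 same-number pairs of libraries had correlations of deviations from group means of 0.153 to 0.722 over 9071 genes. No duplicate libraries were found. The 8 genes and all lists were chosen with earlier results of these data known. Other genes are named if past the threshold (at most 10, by smallest p), among the 5 highest by FPKM, or among the 3 most similar to a member; some genes that this rule or the design would name are not reported here. Alternatives were RLE factors, DESeq2 1.42.0, limma 3.58.1 voom with quality weights, other filters, other blocks, fewer libraries and summed fractions.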

Additional observations from a re-analysis of the deposited data

Results flagged for a closer look

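Plat, for tissue plasminogen activator, was the only one of the 8 genes whose A5 difference ran in opposite directions in the genotypes in every pair of libraries of the same number. It was higher in A5-positive than in A5-negative cells in RORγt-deficient mice, by 0.09, 0.23 and 0.25 on the log2 scale in numbers 1, 2 and 3. In wild-type mice the values were -0.35, -0.15 and -0.03. The A5 difference in RORγt-deficient mice minus that in wild-type mice was 0.3524 on the log2 scale. Its edgeR adjusted p was 1 without a block, 0.914 with the replicate block and 0.849 with a block by genotype and number, so the opposite directions were not shown to differ beyond the spread between libraries.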

How the results depend on the processing

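Counts of called genes among the 8 depended on the block more than on the scaling, and no call changed direction under any alternative run. Between fractions of wild-type mice the count was 1, and it was 2 with voom, 4 with the replicate block, 4 with a block by genotype and number and 0 in a fit of the 6 compared libraries. In RORγt-deficient mice it was 1, and it was 2 with the block by genotype and number and 0 with the stricter filter (5 CPM in 3 libraries), which removes Tfpi. Averaged over genotypes it was 2, and it was 4 with the replicate block, 5 with the block by genotype and number and 1 with the stricter filter. Between genotypes in A5-positive cells it was 0, and it was 1 with DESeq2, 1 with no filter and 4 with the replicate block. Averaged over fractions it was 0, and it was 3 with DESeq2, 4 with no filter, 5 with the replicate block and 3 with summed fractions and the block.

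With libraries left out, singly or by number, the counts without the block ran from 0 to 1, 0 to 1, 1 to 3, 0 to 0 and 0 to 0 in these 5 comparisons in the order given, and with the replicate block from 0 to 3, 0 to 2, 2 to 5, 0 to 5 and 0 to 5. The blocked average over fractions kept Thbd, Plaur and Serpinb2 on leaving out any single library, and no member without library 2 of every group, where 2 of 17632 genes passed. In A5-negative cells and for the interaction the count was 0 in all alternatives. The cause was not tested. Depth limits Tfpi, with 1 to 210 counts. The replicate numbers were taken to pair the samples from the data, not from the labels, and blocks by genotype and number, summed fractions and leaving out a number were added after the data were seen. Pools of 2 or 3 mice and the high fibroblast markers of A5-positive libraries, whose source was not tested, limit what the genotype and fraction comparisons show.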
